A study of Mus musculus with 16 samples.

Results

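The RNA sequencing compared here was done on the livers of mice fed fenretinide in a high-fat diet for 20 weeks and of mice fed the high-fat diet alone for the same time. The samples were chosen by the diet and duration in their labels, which gave 8 of the 16 livers of the series, 4 in each group. The FEN-HFD group is 4 male C57BL/6J wild-type mice (mice 21, 22, 24 and 29) given a 45% HFD with 0.04% fenretinide, and the HFD group is 4 male C57BL/6J wild-type mice (mice 25, 28, 33 and 45) given the 45% HFD without it. Both groups therefore share the strain, the sex, the fatty diet and its duration, and differ by the labels in fenretinide alone. The age of these mice and their feeding state when the livers were taken are not given in the sources used here, and lean livers were not analysed here. The sequencing was done to describe, at the level of gene expression, how fenretinide acts on the liver of mice made obese by diet. According to the paper, fenretinide limited the adiposity, insulin resistance and liver triglyceride of mice on this diet. The paper proposes that its effects on liver genes are associated with the lower adiposity. Whether a difference below goes with the drug itself or with lower adiposity and liver fat was not tested.

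Fenretinide is a synthetic amide derivative of retinoic acid, the hormone-like form of vitamin A. Retinoic acid enters the nucleus and binds retinoic acid receptors (RARs), which sit on DNA together with retinoid X receptors and switch on genes nearby, among them the CYP26 enzymes that destroy retinoic acid again. In the liver, vitamin A is stored as retinyl esters in stellate cells, while hepatocytes make and export fat and secrete most of the proteins of the blood.

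The best known binding site of these receptors is a direct repeat of 2 half-sites with 5 bases between them, called DR5, and among the genes that rose with fenretinide 2 carry one close to a transcript start. Of the 100 genes that rose, 75 have a promoter entry in the RefSeq table of GRCm38.p6, the mm10 genome, in which a promoter is the 250 bases before a start and the 50 bases after it. A gene can have several starts in this table, and the starts used for Cyp26a1 and Rarb lie inside the span that RefSeq gives for the whole gene. DR5 was searched on both strands, as were DR1 and DR2, which have 1 or 2 bases between the half-sites. DR5 was found in 2 of the 88 promoters of genes that rose (2.27%), those of Cyp26a1 and Rarb. It was found in 0 of the 134 promoters of 100 genes that fell. Over all 32851 promoters of this length, 0.0974% hold a DR5, and 0.0406% of the promoters of the genes tested do. No DR1 or DR2 was found in the promoters of the genes that rose or fell. Of all promoters 0.222% and 0.268% hold them, and of the promoters of the genes tested 0.228% and 0.0894%. With shares this small, so few promoters would mostly hold none. The absence of these repeats, and of DR5 in genes that fell, therefore shows no contrast. Because Cyp26a1 and Rarb rose and hold a DR5, which is in capitals, their 2 promoters are shown. That of Cyp26a1 lies at chr19:37697558-37697857 on the plus strand and that of Rarb at chr14:16575427-16575726 on the minus strand.
Cyp26a1: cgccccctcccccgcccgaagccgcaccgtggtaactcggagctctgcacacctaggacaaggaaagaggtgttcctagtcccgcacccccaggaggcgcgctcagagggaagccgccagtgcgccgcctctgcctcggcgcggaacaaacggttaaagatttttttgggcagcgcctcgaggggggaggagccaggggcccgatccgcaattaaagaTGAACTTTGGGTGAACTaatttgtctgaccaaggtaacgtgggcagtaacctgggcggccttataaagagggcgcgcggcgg
Rarb: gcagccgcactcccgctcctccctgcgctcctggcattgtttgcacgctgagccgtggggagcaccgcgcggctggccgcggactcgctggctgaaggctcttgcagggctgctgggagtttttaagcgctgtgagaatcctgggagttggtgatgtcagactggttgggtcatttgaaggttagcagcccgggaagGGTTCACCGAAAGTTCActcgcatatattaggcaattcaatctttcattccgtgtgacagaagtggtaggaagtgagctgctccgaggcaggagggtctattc
The DR5 of Cyp26a1 covers the bases from 32 to 16 before that start and reads on the reverse strand, and that of Rarb covers those from 53 to 37 before its own and reads on the forward strand. A match of letters is a description of the sequence and does not show that a receptor was bound there.

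The counts assigned to genes came to between 19218230 and 24237124 per FEN-HFD liver and between 23607063 and 30810144 per HFD liver. The library of mouse 29 in the FEN-HFD group was unlike the others. Ribosomal RNA precursor (Rn45s) took 53.1% of its counts and Lars2 4.36%, against at most 1.46% and 0.0499% in the other libraries, which left it 8357336 counts for all other genes. For most lists with a call the number called without it is given as well, and each named gene that passed with it but not without it has its adjusted p without it beside it. A gene's level is in CPM (counts relative to the library's total after TMM scaling), and values are given for FEN-HFD mice 21, 22, 24 and 29 and for HFD mice 25, 28, 33 and 45, in this order. Differences are log2 fold changes, FEN-HFD over HFD, with the standard error (SE) of edgeR's quasi-likelihood fit, and a gene rose or fell if its Benjamini-Hochberg adjusted p over all genes tested was under 0.05. CPM is not divided by gene length, so levels are compared between livers and not between genes. Nothing in the labels says that any of the 8 livers share an animal.

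With fenretinide, 100 of 13010 genes tested rose and 142 fell, which is 0.769% and 1.09%, or 1.86% together. In all 242 of them the 4 FEN-HFD livers lay outside the range of the 4 HFD livers, as they did in 12.8% of all genes tested (6% above and 6.83% below). A separation stated below for a gene that rose or fell is therefore no evidence beyond its call. The rise exceeded 2-fold in 53 genes and the fall did so in 68, while the median log2 fold change of all genes was 0.01. At an unadjusted p under 0.05, the level also given for lists without a call, 8.5% of all genes were higher and 10% lower, or 18.5% together. DESeq2 called 2.94% of its genes higher and 4.13% lower, and limma-voom 3.72% and 4.95%, the shares to read beside the counts these tools give in lists. Of 33 tested genes taken from the paper 1 rose and 9 fell. The falls numbered 13 without mouse 29, 25 with an unadjusted p under 0.05, 22 in DESeq2 and 23 in limma-voom, and the rises 1 without mouse 29, 3 with an unadjusted p under 0.05, 2 in DESeq2 and 2 in limma-voom. This is no independent evidence of direction because some of them were picked on these samples. The set is also mixed. The text of the paper names Cept1, Lpcat3, Cd36 and Fads1 for its knockdown of Hsd17b13. Cd36 and Fads1 are among the 9 that fell. The paper also reports that fenretinide did not lower Hsd17b4 and Hsd17b12. Without mouse 29, 203 of 13205 genes rose (1.54%) and 221 fell (1.67%), of which 96 and 129 were among those called with it. Leaving out FEN-HFD mouse 21 left 16 genes higher and 20 lower, the lowest counts of the 8 fits that each omit a liver, and 35 of the 242 genes were called in all 8 of them.

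**Figure D1:**
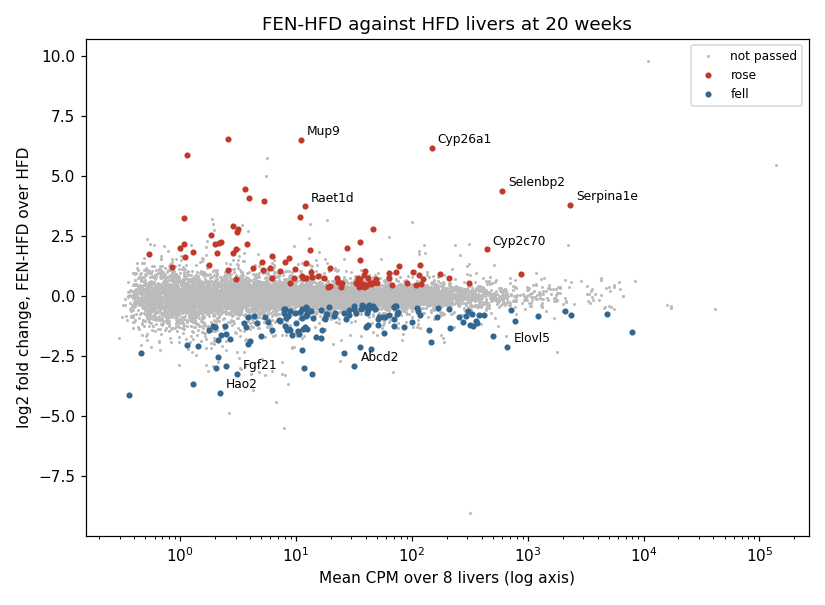
Each point is 1 of the 13010 genes tested, with its mean CPM over the 8 livers on a log axis and its log2 fold change, FEN-HFD over HFD, on the vertical axis. The 100 genes that rose and the 142 that fell are coloured. A few are named, with Cyp26a1 at 6.19 and Hao2, which had 21 counts in all FEN-HFD livers together, at -4.02.

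Several genes of retinoic acid degradation and signalling rose. Cyp26a1, the enzyme that starts the oxidation of retinoic acid in liver, had 294, 289.9, 276 and 308 CPM in FEN-HFD livers, against 4.84, 3.68, 3.68 and 3.82 CPM in HFD livers, a log2 fold change of 6.19 ± 0.13, adjusted p = 8.78e-09. The spread inside each group was small beside this distance, and of the 43 called genes that average 100 CPM or more it had the largest fold change. The gene lies at chr19:37697738-37701536. Cyp26b1, a related enzyme, had 20.1, 21.1, 17.6 and 24.97 CPM in FEN-HFD livers, against 6.62, 2.48, 6.99 and 6.16 CPM in HFD livers (log2 fold change 1.91 ± 0.29, adjusted p = 0.0168). Of the other genes known to respond to retinoic acid, Rarb, which encodes the receptor RARβ, had 13.6, 12.3, 11.7 and 17.01 CPM in FEN-HFD livers, against 6.44, 7.89, 5.29 and 4.79 CPM in HFD livers (log2 fold change 1.15 ± 0.18, adjusted p = 0.0168). Mouse 29 was highest of the FEN-HFD livers in all 3 genes, and without it they had adjusted p = 2.80e-09, 0.0329 and 0.013. In the list of 15 tested genes of retinoic acid degradation and classic induced genes 0 fell by edgeR (0 with an unadjusted p under 0.05, 0 in DESeq2 and 1 in limma-voom), while 7 rose with an unadjusted p under 0.05, 6 in DESeq2 and 6 in limma-voom, and its median log2 fold change was 0.27. Mouse 29 was the highest FEN-HFD liver in 12 of the 15 (80%), against 39.1% of all genes tested.

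Among the receptors and their partners 2 of 11 rose, Rarb and Trim24, a cofactor that binds RARα and restrains it in mouse liver. Trim24 had 50.1, 52.1, 58.99 and 48.9 CPM in FEN-HFD livers, against 29.8, 40.8, 29.2 and 26.5 CPM in HFD livers (log2 fold change 0.73 ± 0.13, adjusted p = 0.0278). The remaining members stayed between a log2 fold change of -0.52 for Rxrg (adjusted p = 0.102) and 0.58 for Rarg (adjusted p = 0.177), and in the list 0 fell by edgeR (1 with an unadjusted p under 0.05, 1 in DESeq2 and 2 in limma-voom), while the number that rose, 2 by edgeR, was 2 without mouse 29, 5 with an unadjusted p under 0.05, 2 in DESeq2 and 2 in limma-voom. Rarg was named after its values were seen.

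In vitamin A storage, Lrat, which joins retinol to a fatty acid to make retinyl esters, had 72.9, 83.5, 78.2 and 85.2 CPM in FEN-HFD livers, against 56.1, 56.3, 41.6 and 36.2 CPM in HFD livers (log2 fold change 0.75 ± 0.15, adjusted p = 0.0357). The lowest FEN-HFD liver lay above the highest HFD liver. Ttr, a secreted carrier of thyroid hormone and vitamin A in blood, had 4399 ± 249 CPM in FEN-HFD livers and 6113 ± 279.6 CPM in HFD livers (SD, n = 4 each), which missed the threshold (adjusted p = 0.0726).

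Of 24 tested retinol and retinal dehydrogenases 3 fell. Rdh16 had 67.5, 76.9, 90.8 and 67.05 CPM in FEN-HFD livers, against 217, 239, 201 and 153 CPM in HFD livers (log2 fold change -1.42 ± 0.16, adjusted p = 0.00464), and its relative Rdh9 had 45.8, 52.6, 59.5 and 43.1 CPM in FEN-HFD livers, against 149, 132, 115 and 92.1 CPM in HFD livers (log2 fold change -1.28 ± 0.16, adjusted p = 0.00701). Both are short-chain dehydrogenases that can turn retinol into retinal. Aox1, an aldehyde oxidase that can oxidise retinal, had 115, 121, 137 and 94.8 CPM in FEN-HFD livers, against 243, 226, 193 and 185 CPM in HFD livers (log2 fold change -0.86 ± 0.14, adjusted p = 0.0177). In all 3 genes each FEN-HFD liver, mouse 29 included, was below each HFD liver. In the list 0 rose by edgeR (1 without mouse 29, 2 with an unadjusted p under 0.05, 2 in DESeq2 and 2 in limma-voom), while the number that fell, 3 by edgeR, was 3 without mouse 29, 7 with an unadjusted p under 0.05, 7 in DESeq2 and 6 in limma-voom. Rdh9 and Rdh16 belong to a cluster of similar genes on chromosome 10, and reads that fit more than 1 of them may have been shared between them.

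**Figure D2:**
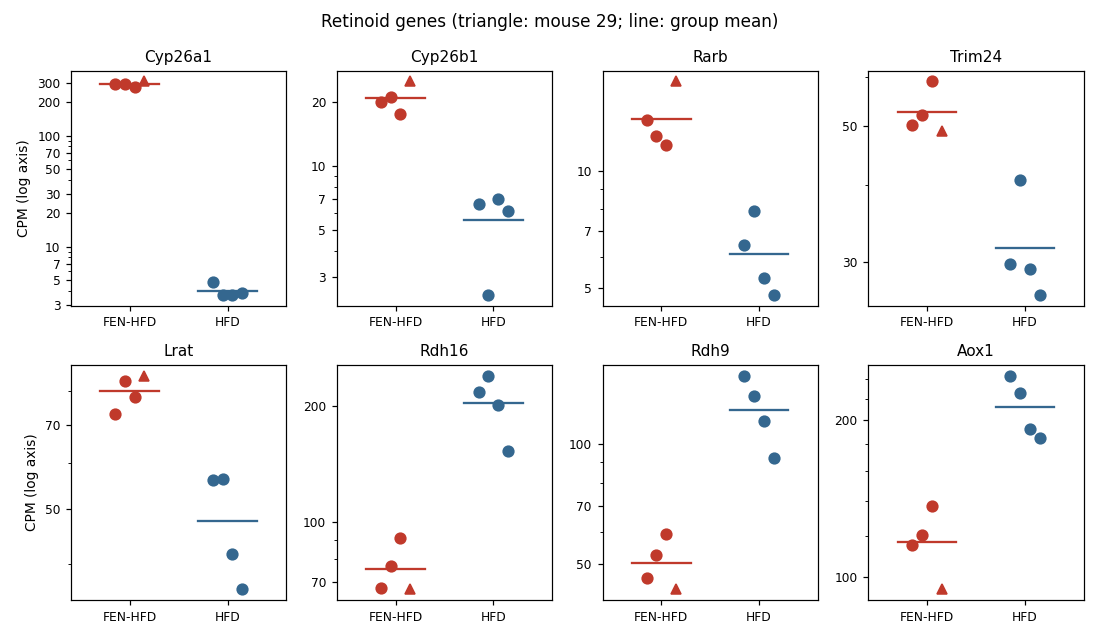
Points are the CPM of each liver on a log axis for 8 retinoid genes, with FEN-HFD livers on the left of each panel and HFD livers on the right, lines at the group means, and mouse 29 as a triangle. In each panel the groups do not overlap, with the 5 genes of degradation, signalling and storage above HFD livers and the 3 oxidising enzymes below them.

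Genes of another kind that carry retinoic acid in their name also rose. Raet1d, a retinoic acid early transcript whose product is a ligand of the NKG2D receptor of natural killer cells, had 21.2, 19.4, 23.3 and 24.97 CPM in FEN-HFD livers, against 1.89, 2.72, 1.01 and 0.935 CPM in HFD livers (log2 fold change 3.74 ± 0.31, adjusted p = 0.00223). Raet1e had 5.98, 5.46, 8.75 and 9.26 CPM in FEN-HFD livers, against 0.5096, 0.867, 0.2204 and 0.0779 CPM in HFD livers (log2 fold change 4.07 ± 0.50, adjusted p = 0.00827), and the related Raet1a had 2.41, 1.96, 1.596 and 1.91 CPM in FEN-HFD livers, against 0.109, 0.598, 0.0315 and 0.03896 CPM in HFD livers (adjusted p = 0.0418). All FEN-HFD livers were above all HFD livers in each, and in Raet1a the HFD livers held 25 counts in all. These are similar copies, so that reads could have been split between them, and the counting rule is not given in the sources used here. Raet1d and Raet1e were matched to a RefSeq gene on chromosome 10, whereas Raet1a was matched to none. Whether its counts come from a separate gene was not tested. Gzmb, a granule enzyme of the killer cells that carry this receptor, had 0.613, 0.377, 1.06 and 1.41 CPM in FEN-HFD livers, against 0.291, 0.0897, 0.126 and 0.117 CPM in HFD livers (adjusted p = 0.0573). Of the 8 tested T and natural killer cell markers, Gzmb among them, 0 rose by edgeR. Their median log2 fold change was 0.85, and 0.26 without mouse 29, which was the highest FEN-HFD liver in all 8. Gzma and Cd4, of the same list, overlapped between the groups.

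Hoxd4, a homeobox gene that retinoic acid switches on in the embryo, was counted 89, 61, 44 and 13 times in FEN-HFD livers and 0, 0, 3 and 1 times in HFD livers (adjusted p = 0.00464). With 4 counts in the HFD group no fold change is given. Meg3, a maternally expressed non-coding RNA of an imprinted cluster on chromosome 12, had 4.11, 4.48, 6.91 and 4.53 CPM in FEN-HFD livers, against 0.473, 0.269, 0.504 and 1.402 CPM in HFD livers (log2 fold change 2.94 ± 0.44, adjusted p = 0.0145), and Rian, which lies beside it in the same cluster, had 4.14, 4.71, 9.43 and 3.62 CPM in FEN-HFD livers, against 0.328, 0.448, 0.472 and 1.95 CPM in HFD livers (log2 fold change 2.81 ± 0.58, adjusted p = 0.0488). Mouse 24 was highest of the FEN-HFD livers and mouse 45 of the HFD livers in both. These 3 were the genes that rose among 16 tested imprinted and Hox genes, where 0 fell by edgeR (1 with an unadjusted p under 0.05, 0 in DESeq2 and 0 in limma-voom), while the number that rose, 3 by edgeR, was 2 without mouse 29, 4 with an unadjusted p under 0.05, 3 in DESeq2 and 3 in limma-voom. Without mouse 29, Rian had adjusted p = 0.0561, and without mouse 24 its log2 fold change was 2.41 with adjusted p = 0.0983. Hoxd4 overlaps Hoxd3 and a microRNA gene, and Meg3 and Rian overlap other transcripts, which cannot be told apart where the counting did not use strand.

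Of the liver genes that male mice express more than female mice 9 of 36 tested rose, and of those that females express more 3 of 19 fell. In rodents these genes follow the pulses of growth hormone that the pituitary sends out, which differ between the sexes. Selenbp2, a selenium-binding protein, had 1039, 1437, 1288 and 798 CPM in FEN-HFD livers, against 21.5, 32.7, 66.6 and 96.7 CPM in HFD livers (log2 fold change 4.39 ± 0.49, adjusted p = 0.00657). The gene lies at chr3:94693573-94704406. Serpina1e, 1 of several copies of the α1-antitrypsin gene, had 4132, 3199.8, 4010.4 and 5984 CPM in FEN-HFD livers, against 206, 86.6, 447 and 498 CPM in HFD livers (log2 fold change 3.81 ± 0.54, adjusted p = 0.0145). The lowest FEN-HFD liver was over 6 times the highest HFD liver in both. Mup9, 1 of the major urinary proteins that mice excrete as scent carriers, had 24.1, 27.97, 29.8 and 4.83 CPM in FEN-HFD livers, against 0.328, 0.1196, 0.315 and 0.195 CPM in HFD livers (log2 fold change 6.50 ± 0.65, adjusted p = 0.00464), Mup15 had 8.25, 7.72, 9.28 and 2.32 CPM in FEN-HFD livers, against 0.218, 0, 0.441 and 0.623 CPM in HFD livers (log2 fold change 4.47 ± 0.71, adjusted p = 0.0196) and Mup8 had 8.87, 14.04, 15.5 and 1.41 CPM in FEN-HFD livers, against 0.364, 0.508, 0.819 and 0.935 CPM in HFD livers (log2 fold change 3.94 ± 0.65, adjusted p = 0.0247). In these 3 genes mouse 29 was the lowest FEN-HFD liver by far, yet above every HFD liver. The HFD livers held 28 counts of Mup9 and 36 of Mup15 in all, so the size of these fold changes is uncertain.

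The other male-biased genes that rose were C6, C8a, Mup10 and Moxd1, of which Mup10 was named after its values were seen, while in the list 0 fell by edgeR (1 with an unadjusted p under 0.05, 1 in DESeq2 and 0 in limma-voom), while the number that rose, 9 by edgeR, was 10 without mouse 29, 21 with an unadjusted p under 0.05, 12 in DESeq2 and 21 in limma-voom. The median log2 fold change of the list was 1.42, against 0.01 for all genes, and it was 1.53 without mouse 29. Within the groups the livers were not alike. HFD mice 25 and 28 were both below HFD mice 33 and 45 in 32 of the 36 members (88.9%), as they were in 26.3% of all genes tested, and mouse 29 was the lowest FEN-HFD liver in 29 of them (80.6%), against 38.5% of all genes. Moxd1, a copper monooxygenase, had 1.37, 1.995, 16.2 and 1.11 CPM in FEN-HFD livers, against 0, 0, 0.0945 and 0.117 CPM in HFD livers, with adjusted p = 0.0478 and, without mouse 29, 0.0633. Mouse 24 was far above the other FEN-HFD livers, and the HFD group held 6 counts in all. The Mup genes and the Serpina1 genes are families of near-identical copies, and the level of a single copy is uncertain for that reason.

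The female-biased genes that fell were Hao2, Cyp17a1 and Abcd2. Hao2, a peroxisomal hydroxy acid oxidase, had 0.216, 0.377, 0.0484 and 0.403 CPM in FEN-HFD livers, against 8.12, 3.89, 2.77 and 1.71 CPM in HFD livers (log2 fold change -4.02 ± 0.63, adjusted p = 0.0177). The FEN-HFD livers held 21 counts of it in all, so the size of this fold change is uncertain. Cyp17a1, the steroid 17-hydroxylase, had 1.297, 4.33, 2.998 and 1.31 CPM in FEN-HFD livers, against 19.8, 37.01, 11.1 and 15.2 CPM in HFD livers (log2 fold change -3.01 ± 0.50, adjusted p = 0.0251), and Abcd2, a transporter of long fatty acids into peroxisomes, had 4.58, 6.36, 4.16 and 16.7 CPM in FEN-HFD livers, against 73.01, 77.02, 38.7 and 34.4 CPM in HFD livers (log2 fold change -2.91 ± 0.49, adjusted p = 0.0286). None of these 3 overlapped between groups, and mouse 29 had the highest Abcd2 with fenretinide. The median log2 fold change of the list was -1.34 (-1.44 without mouse 29), and 0 rose by edgeR (3 with an unadjusted p under 0.05, 1 in DESeq2 and 0 in limma-voom), while the number that fell, 3 by edgeR, was 3 without mouse 29, 14 with an unadjusted p under 0.05, 11 in DESeq2 and 11 in limma-voom. Sult1e1, the oestrogen sulfotransferase, had 1.66, 19.1, 20.8 and 0.705 CPM in FEN-HFD livers, against 0.291, 0.329, 0.2204 and 0.506 CPM in HFD livers, which missed the threshold (adjusted p = 0.0682). It was high in FEN-HFD mice 22 and 24 alone. Without mouse 29, Cyp17a1 had adjusted p = 0.0663.

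**Figure D3:**
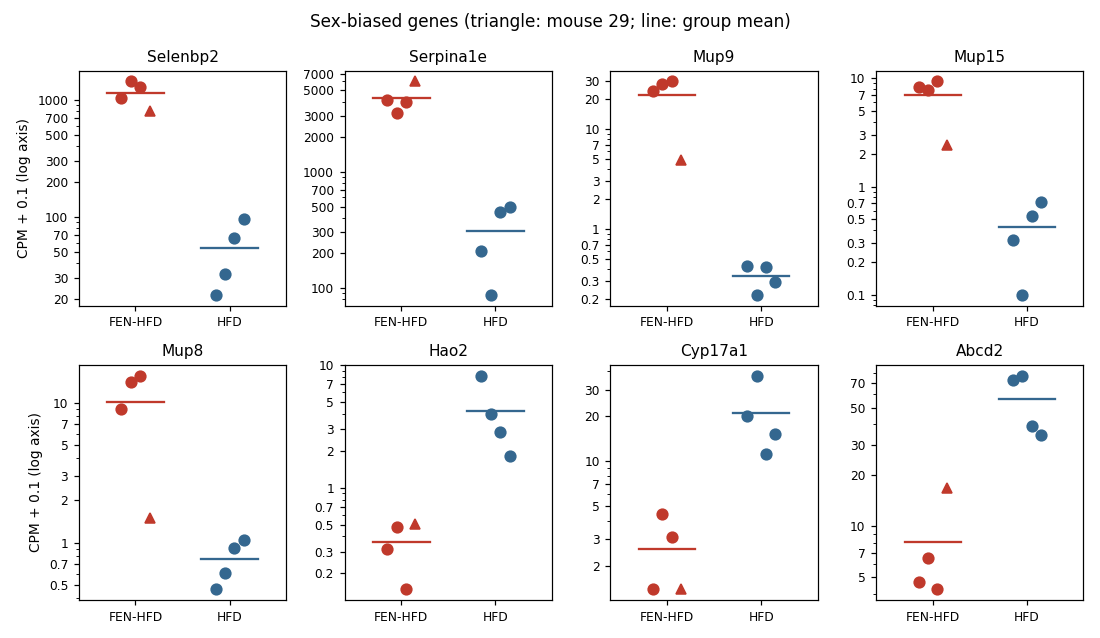
CPM of each liver plus 0.1 on a log axis, FEN-HFD livers left and HFD livers right, for 5 genes that male mice express more and 3 that female mice express more, with lines at the group means and mouse 29 as a triangle. The Mup genes show mouse 29 below the other FEN-HFD livers, and HFD mice 25 and 28 have the lowest levels of Selenbp2 and Serpina1e.

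Genes for the growth hormone and insulin-like growth factor axis itself did not pass the test. In that list of 23 genes 0 rose by edgeR (3 with an unadjusted p under 0.05, 1 in DESeq2 and 1 in limma-voom) and 0 fell by edgeR (1 without mouse 29, 2 with an unadjusted p under 0.05, 2 in DESeq2 and 2 in limma-voom). Igfbp2, an insulin-like growth factor binding protein of blood, had 381, 463, 334 and 502 CPM in FEN-HFD livers, against 118, 88.5, 213 and 282 CPM in HFD livers (adjusted p = 0.0982). All FEN-HFD livers were higher, and HFD mice 25 and 28 were again the lowest. Insulin signalling genes also gave no call. Among 22 tested 0 rose by edgeR (2 with an unadjusted p under 0.05, 1 in DESeq2 and 1 in limma-voom) and 0 fell by edgeR (1 with an unadjusted p under 0.05, 0 in DESeq2 and 0 in limma-voom), with a median log2 fold change of 0.02.

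In the synthesis of long polyunsaturated fatty acids 4 of 14 genes fell. Fads1 and Fads2, the desaturases, and Elovl2 and Elovl5, the elongases, make the long omega-3 and omega-6 fatty acids from those of the diet. Elovl5, at chr9:77917365-77984519, had 206, 328, 291 and 184 CPM in FEN-HFD livers, against 1189, 1518, 917 and 709 CPM in HFD livers (log2 fold change -2.10 ± 0.27, adjusted p = 0.00827) and Fads2 had 224, 292, 269 and 174 CPM in FEN-HFD livers, against 704, 1085, 604 and 619 CPM in HFD livers (log2 fold change -1.65 ± 0.23, adjusted p = 0.0104). Elovl2 had 218, 271, 256 and 170.1 CPM in FEN-HFD livers, against 562, 478, 479.99 and 465 CPM in HFD livers (log2 fold change -1.12 ± 0.15, adjusted p = 0.00956), and Fads1 had 152, 189, 228 and 206 CPM in FEN-HFD livers, against 424, 529.7, 415 and 411 CPM in HFD livers (log2 fold change -1.20 ± 0.15, adjusted p = 0.00657). All 4 were lower in each FEN-HFD liver than in any HFD liver, and all 4 were called without mouse 29. The log2 fold changes of the other 10 lay between -0.40 for Hsd17b12 and 0.08 for Ptplb, which was named after its values were seen, with a median over all 14 of -0.23. In this list 0 rose by edgeR (0 with an unadjusted p under 0.05, 0 in DESeq2 and 0 in limma-voom), while the number that fell, 4 by edgeR, was 4 without mouse 29, 5 with an unadjusted p under 0.05, 4 in DESeq2 and 4 in limma-voom.

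In the making of fatty acids from sugar 1 of 22 genes rose and 3 fell, and the falls numbered 3 without mouse 29, 10 with an unadjusted p under 0.05, 10 in DESeq2 and 8 in limma-voom. Scd1, which makes monounsaturated fatty acids, had 2787, 5624, 5178 and 2847 CPM in FEN-HFD livers, against 12812, 14309, 11217 and 8107 CPM in HFD livers (log2 fold change -1.50 ± 0.28, adjusted p = 0.0316). Me1, a malic enzyme that supplies NADPH for fat synthesis, had 59.1, 87.8, 68.95 and 24.97 CPM in FEN-HFD livers, against 289.6, 292, 161 and 177 CPM in HFD livers (log2 fold change -1.93 ± 0.37, adjusted p = 0.0384). Pklr, the liver pyruvate kinase, had 199.5, 228, 132 and 152 CPM in FEN-HFD livers, against 355, 435, 338 and 363 CPM in HFD livers (log2 fold change -1.07 ± 0.18, adjusted p = 0.0191). All 3 fell, whereas Mlxipl, which encodes ChREBP, the factor that turns on Pklr and lipogenic genes when sugar is plentiful, rose, with 152, 152, 149 and 174 CPM in FEN-HFD livers, against 102, 75.5, 93.9 and 107 CPM in HFD livers (log2 fold change 0.73 ± 0.12, adjusted p = 0.0191). Fasn, the fatty acid synthase, named after its values were seen, had 278, 394, 229.97 and 332 CPM in FEN-HFD livers, against 1553, 1424, 447 and 516 CPM in HFD livers and missed the threshold (adjusted p = 0.0824). Its HFD livers fell into a high pair and a low pair, mice 25 and 28 against mice 33 and 45, and all FEN-HFD livers were below both.

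The same pair stood out in cholesterol synthesis. In 23 of the 27 genes tested (85.2%) HFD mice 25 and 28 were both above HFD mice 33 and 45, against 24.4% of all genes tested. Sc5d, a late enzyme of the pathway, had 286, 285, 294 and 259 CPM in FEN-HFD livers, against 574, 687, 351 and 361 CPM in HFD livers (adjusted p = 0.0825), and Fdps, which makes farnesyl diphosphate, had 52.2, 60.2, 52.9 and 72.6 CPM in FEN-HFD livers, against 129, 274, 90.6 and 92.2 CPM in HFD livers (adjusted p = 0.0967). The median log2 fold change of the list was -0.66, yet 0 fell by edgeR (14 with an unadjusted p under 0.05, 6 in DESeq2 and 7 in limma-voom) and 0 rose by edgeR (0 with an unadjusted p under 0.05, 0 in DESeq2 and 0 in limma-voom). No label divides the 4 HFD mice, so they are kept as 1 group throughout.

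**Figure D4:**
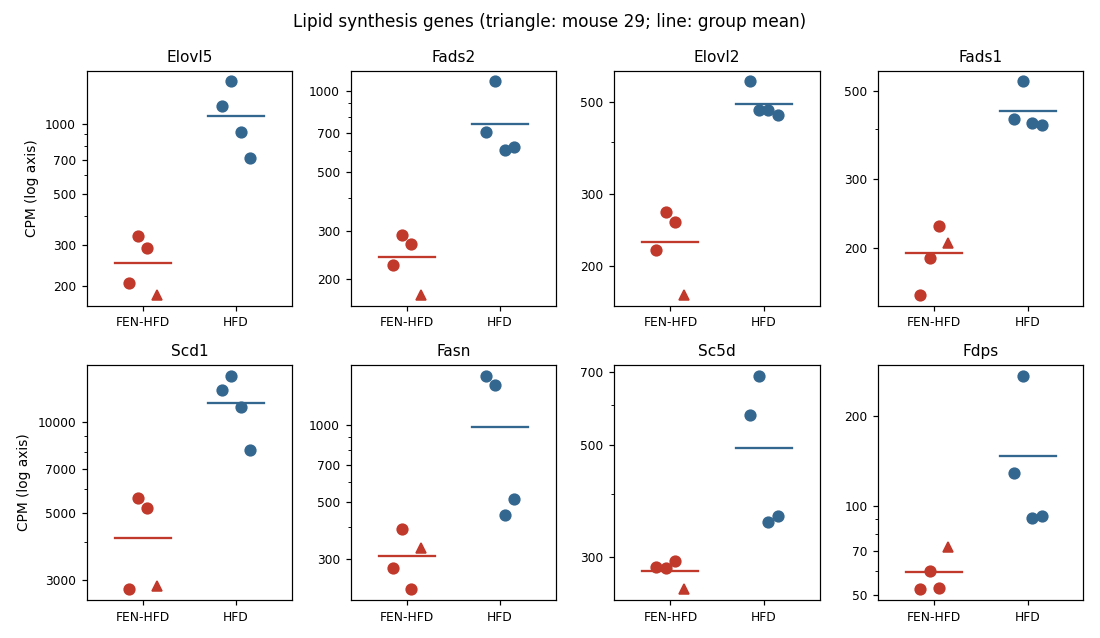
CPM of each liver on a log axis, FEN-HFD livers left and HFD livers right, for 8 genes of fatty acid and cholesterol synthesis, with lines at the group means and mouse 29 as a triangle. Elovl5, Fads2, Elovl2 and Fads1 separate the groups, and HFD mice 25 and 28 are highest in Fasn and Fdps.

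Among fat droplet genes 2 of 20 fell. Plin2, the protein that coats fat droplets in hepatocytes, had 476, 559, 563 and 423 CPM in FEN-HFD livers, against 975, 1464, 962 and 756 CPM in HFD livers (log2 fold change -1.04 ± 0.20, adjusted p = 0.0335), and Hsd17b13, a dehydrogenase on the droplet surface, had 184, 199.998, 190.1 and 213 CPM in FEN-HFD livers, against 473, 656, 419 and 341 CPM in HFD livers (log2 fold change -1.26 ± 0.18, adjusted p = 0.0124). Both were lower in each FEN-HFD liver than in any HFD liver. In the list of droplet proteins and lipases 0 rose by edgeR (0 with an unadjusted p under 0.05, 0 in DESeq2 and 0 in limma-voom), while the number that fell, 2 by edgeR, was 3 without mouse 29, 10 with an unadjusted p under 0.05, 8 in DESeq2 and 8 in limma-voom. Cidec, which enlarges droplets, had 18.5, 27.6, 28.96 and 20.9 CPM in FEN-HFD livers, against 78.03, 133, 38.8 and 22.9 CPM in HFD livers (adjusted p = 0.164). HFD mouse 45 was there as low as the FEN-HFD livers. In triglyceride synthesis Mogat1, a monoacylglycerol acyltransferase, was the 1 of 18 genes that fell (log2 fold change -1.65 ± 0.29, adjusted p = 0.0244), a count that was 1 without mouse 29, 7 with an unadjusted p under 0.05, 5 in DESeq2 and 5 in limma-voom. Acsl5, which activates fatty acids, had 323, 385, 403 and 352 CPM in FEN-HFD livers, against 606, 758, 560.1 and 468 CPM in HFD livers and adjusted p = 0.0516, and Gpam, the first acyltransferase of the pathway, had 229.6, 275, 249 and 200.4 CPM in FEN-HFD livers, against 662, 678, 351 and 353 CPM in HFD livers and adjusted p = 0.0549. In both genes all FEN-HFD livers were below the HFD livers, although neither passed. Whether hepatocytes held less of these RNAs or cells that hold them were fewer cannot be told apart in whole liver.

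Of 47 tested targets of PPARα, the receptor that turns on fat burning when fatty acids arrive, 7 fell, and 0 rose by edgeR (1 with an unadjusted p under 0.05, 0 in DESeq2 and 1 in limma-voom), while the number that fell, 7 by edgeR, was 11 without mouse 29, 29 with an unadjusted p under 0.05, 22 in DESeq2 and 21 in limma-voom. Their median log2 fold change was -0.42 (-0.34 without mouse 29). Crat, which moves acetyl groups between carnitine and coenzyme A, had 36.4, 37.7, 44.1 and 45.8 CPM in FEN-HFD livers, against 94.9, 106, 102 and 90.5 CPM in HFD livers (log2 fold change -1.26 ± 0.10, adjusted p = 0.00151). Vnn3, a pantetheinase, had 42.4, 51.3, 49.8 and 47.4 CPM in FEN-HFD livers, against 83.6, 93.3, 108 and 84.2 CPM in HFD livers (log2 fold change -0.95 ± 0.11, adjusted p = 0.00464). Fgf21, a hormone that the liver secretes in fasting and on fatty diets, had 0.541, 0.866, 0.435 and 0.403 CPM in FEN-HFD livers, against 5.496, 9.75, 4.35 and 2.69 CPM in HFD livers (log2 fold change -3.25 ± 0.43, adjusted p = 0.00956). In these 3 genes every FEN-HFD liver, mouse 29 included, was below all HFD livers. Cd36, which takes up fatty acids, had 112, 115, 139.9 and 118 CPM in FEN-HFD livers, against 345, 448, 245 and 196 CPM in HFD livers (log2 fold change -1.35 ± 0.23, adjusted p = 0.0255), and Acot2, a mitochondrial thioesterase, had 5.298, 5.87, 6.48 and 4.53 CPM in FEN-HFD livers, against 12.3, 25.02, 15.1 and 9.23 CPM in HFD livers (log2 fold change -1.46 ± 0.29, adjusted p = 0.0384). Without mouse 29, Cd36 had adjusted p = 0.0523 and Acot2 had 0.0735. Plin2 and Mogat1 complete the 7. Of 41 genes of fatty acid oxidation Abcd2 fell, and 0 rose by edgeR (3 with an unadjusted p under 0.05, 0 in DESeq2 and 2 in limma-voom), while the number that fell, 1 by edgeR, was 3 without mouse 29, 16 with an unadjusted p under 0.05, 10 in DESeq2 and 8 in limma-voom. Acaa1b, a peroxisomal thiolase, had 1094, 1467, 1418 and 722 CPM in FEN-HFD livers, against 2356, 2375, 2271 and 1801 CPM in HFD livers (adjusted p = 0.0689, and 0.0343 without mouse 29).

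Lipoprotein genes changed in 1 case. Apoa5, which speeds the clearing of triglyceride from blood, had 857, 1046, 894 and 778 CPM in FEN-HFD livers, against 1559, 1358, 1810.0 and 1590.3 CPM in HFD livers (log2 fold change -0.82 ± 0.14, adjusted p = 0.0191). Apoa4, an apolipoprotein of liver and gut, had 491, 939, 732 and 221 CPM in FEN-HFD livers, against 2584, 5474, 2280.2 and 1694 CPM in HFD livers (adjusted p = 0.0561). The groups did not overlap, and mouse 29 was the lowest liver. In this list of 20 genes 0 rose by edgeR (4 with an unadjusted p under 0.05, 3 in DESeq2 and 2 in limma-voom), while the number that fell, 1 by edgeR, was 2 without mouse 29, 8 with an unadjusted p under 0.05, 8 in DESeq2 and 7 in limma-voom.

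Sterol and bile acid genes moved in both directions. Cyp2c70, the mouse enzyme that makes muricholic acids, had 696, 736, 836 and 541 CPM in FEN-HFD livers, against 171, 109, 194 and 251 CPM in HFD livers (log2 fold change 1.95 ± 0.24, adjusted p = 0.00701). Even the lowest FEN-HFD liver was more than 2 times the highest HFD liver. Cyp39a1, which hydroxylates 24-hydroxycholesterol, had 3.46, 5.76, 3.09 and 3.02 CPM in FEN-HFD livers, against 26.3, 17.8, 13.98 and 17.1 CPM in HFD livers (log2 fold change -2.27 ± 0.26, adjusted p = 0.00586), and Cyp46a1, which makes that sterol, had 1.44, 1.17, 1.16 and 1.01 CPM in FEN-HFD livers, against 3.49, 5.56, 4.72 and 3.08 CPM in HFD livers (log2 fold change -1.80 ± 0.24, adjusted p = 0.00914). These were the 1 gene that rose and the 2 that fell among 19 tested for bile acid synthesis, and those that rose numbered 1 without mouse 29, 5 with an unadjusted p under 0.05, 2 in DESeq2 and 4 in limma-voom, while those that fell numbered 2 without mouse 29, 4 with an unadjusted p under 0.05, 4 in DESeq2 and 4 in limma-voom. Cyp7a1, the rate-limiting enzyme and named here for that role after its values were seen, had 105, 106, 102 and 184 CPM in FEN-HFD livers, against 46.2, 78.2, 187 and 109 CPM in HFD livers (adjusted p = 0.789). Cyp8b1, which sets the share of cholic acid and was also named after its values were seen, had 64.8, 158, 91.9 and 34.3 CPM in FEN-HFD livers, against 242, 358, 288 and 200.4 CPM in HFD livers (adjusted p = 0.0845). Among transporters, Slco1a4, which takes up organic anions, had 11.5, 15.9, 19.7 and 16.9 CPM in FEN-HFD livers, against 89.5, 107, 45.8 and 50.4 CPM in HFD livers (log2 fold change -2.20 ± 0.30, adjusted p = 0.0131), and Abcc3, which pumps bile acids back to blood, had 177, 169, 170.4 and 204 CPM in FEN-HFD livers, against 342, 403, 344 and 247 CPM in HFD livers (log2 fold change -0.89 ± 0.15, adjusted p = 0.0201). These were the 2 of 20 transporters that fell, and 0 rose by edgeR (1 with an unadjusted p under 0.05, 0 in DESeq2 and 0 in limma-voom), while the number that fell, 2 by edgeR, was 2 without mouse 29, 5 with an unadjusted p under 0.05, 4 in DESeq2 and 4 in limma-voom.

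Drug-metabolising genes were mostly lower where they passed. Cyp2b10, the usual marker of an active CAR receptor, was counted 2, 7, 7 and 0 times in FEN-HFD livers and 82, 24, 117 and 57 times in HFD livers (adjusted p = 0.0295). Cyp2c55 had 1.01, 1.09, 1.402 and 0.805 CPM in FEN-HFD livers, against 3.46, 3.86, 3.495 and 2.77 CPM in HFD livers (log2 fold change -1.63 ± 0.22, adjusted p = 0.00914). They were the 2 of 20 CAR and PXR genes that fell, and 0 rose by edgeR (4 with an unadjusted p under 0.05, 1 in DESeq2 and 0 in limma-voom), while the number that fell, 2 by edgeR, was 2 without mouse 29, 6 with an unadjusted p under 0.05, 5 in DESeq2 and 4 in limma-voom. Cyp2c38 fell too (log2 fold change -1.27 ± 0.23, adjusted p = 0.0295), although not without mouse 29 (adjusted p = 0.0509). Of 13 tested Cyp2c genes Cyp2c70 rose and these 2, Cyp2c55 and Cyp2c38, fell, with a median log2 fold change of 0.17. Among 30 other xenobiotic cytochromes P450 0 rose and 0 fell by edgeR (1 and 0 without mouse 29), with a median of 0.20. At an unadjusted p under 0.05 7 of them were higher and 6 lower, against 4 and 2 in DESeq2 and 4 and 2 in limma-voom. Of 22 glutathione S-transferases 2 fell, Gstm2 (log2 fold change -1.19 ± 0.22, adjusted p = 0.0313, and 0.0594 without mouse 29) and Mgst3 (log2 fold change -1.74 ± 0.32, adjusted p = 0.0352), and 0 rose by edgeR (1 with an unadjusted p under 0.05, 1 in DESeq2 and 1 in limma-voom), while the number that fell, 2 by edgeR, was 1 without mouse 29, 10 with an unadjusted p under 0.05, 8 in DESeq2 and 6 in limma-voom. Targets of NRF2, the factor that answers oxidants, fell in 3 of 24 cases, namely Ftl1, the ferritin light chain, Abcc3, and Gclc, which makes glutathione. In Gclc the values were 219, 212, 232 and 182 CPM in FEN-HFD livers, against 458, 443, 300.3 and 301 CPM in HFD livers (log2 fold change -0.83 ± 0.17, adjusted p = 0.0381), and in the list 0 rose by edgeR (1 with an unadjusted p under 0.05, 0 in DESeq2 and 0 in limma-voom), while the number that fell, 3 by edgeR, was 3 without mouse 29, 14 with an unadjusted p under 0.05, 11 in DESeq2 and 9 in limma-voom. Members of the Cyp2c, Cyp2b and Gstm families are close copies, so that their single levels carry the uncertainty of shared reads.

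Among 32 tested genes of glycolysis and gluconeogenesis 0 rose by edgeR (1 without mouse 29, 3 with an unadjusted p under 0.05, 1 in DESeq2 and 2 in limma-voom), while 13 fell with an unadjusted p under 0.05, 11 in DESeq2 and 7 in limma-voom. Those that fell included Pklr, Gckr, the protein that holds glucokinase in the nucleus, with 134, 155, 141 and 123 CPM in FEN-HFD livers, against 197, 193, 204 and 193 CPM in HFD livers (log2 fold change -0.51 ± 0.0942, adjusted p = 0.0295), and Pcx, the pyruvate carboxylase that opens gluconeogenesis, with 557, 610.3, 605 and 534 CPM in FEN-HFD livers, against 832, 844, 973 and 792 CPM in HFD livers (log2 fold change -0.58 ± 0.11, adjusted p = 0.0319). The livers of each group were close together in Gckr and Pcx. Mpc1, which carries pyruvate into mitochondria, also fell (log2 fold change -0.50 ± 0.0801, adjusted p = 0.0177).

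Of 14 tested genes of NADPH supply 4 fell, and 0 rose by edgeR (0 with an unadjusted p under 0.05, 0 in DESeq2 and 0 in limma-voom), while the number that fell, 4 by edgeR, was 4 without mouse 29, 6 with an unadjusted p under 0.05, 4 in DESeq2 and 5 in limma-voom. Nnt, the transhydrogenase of the inner mitochondrial membrane, had 46.4, 47.1, 50.3 and 41.6 CPM in FEN-HFD livers, against 78.9, 84.5, 76.5 and 76.3 CPM in HFD livers (log2 fold change -0.77 ± 0.0829, adjusted p = 0.00464). The highest FEN-HFD liver was well below the lowest HFD liver. The C57BL/6J strain is known to carry a deletion inside Nnt, and counts per gene do not show which exons were read. Idh2, a mitochondrial isocitrate dehydrogenase, had 85.1, 80.01, 70.8 and 108 CPM in FEN-HFD livers, against 144, 186, 128 and 136 CPM in HFD livers (log2 fold change -0.79 ± 0.16, adjusted p = 0.0367), and Nadk, which makes NADP, had 162, 178, 182 and 166 CPM in FEN-HFD livers, against 259, 281, 242 and 212 CPM in HFD livers (log2 fold change -0.53 ± 0.11, adjusted p = 0.0402). Me1 was the fourth.

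Of 22 tested genes of iron regulation 3 fell, and 0 rose by edgeR (1 with an unadjusted p under 0.05, 0 in DESeq2 and 1 in limma-voom), while the number that fell, 3 by edgeR, was 4 without mouse 29, 8 with an unadjusted p under 0.05, 7 in DESeq2 and 6 in limma-voom. Hamp2, a copy of the hepcidin gene that mice carry, had 1.48, 1.81, 1.16 and 1.61 CPM in FEN-HFD livers, against 7.61, 5.44, 4.19 and 7.28 CPM in HFD livers (log2 fold change -2.01 ± 0.24, adjusted p = 0.00586), and Id1, which bone morphogenetic proteins induce together with hepcidin, had 3.42, 4.52, 3.29 and 4.03 CPM in FEN-HFD livers, against 7.06, 7.24, 6.36 and 7.32 CPM in HFD livers (log2 fold change -0.88 ± 0.14, adjusted p = 0.0184). Ftl1 had 1694, 1859, 1831 and 1548 CPM in FEN-HFD livers, against 2722, 3347, 3079 and 2668 CPM in HFD livers (log2 fold change -0.77 ± 0.13, adjusted p = 0.0191). None of the 3 overlapped. Hamp, hepcidin itself, named after its values were seen, had 52.9, 41.3, 47.9 and 45.6 CPM in FEN-HFD livers, against 149, 47.96, 89.8 and 127 CPM in HFD livers (adjusted p = 0.0928), with HFD mouse 28 inside the FEN-HFD range. Hamp and Hamp2 are similar, and reads may have been divided between them.

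Secreted proteins of the blood rose in several cases. F11, coagulation factor XI, had 93.6, 97.97, 93.5 and 103 CPM in FEN-HFD livers, against 36.6, 46.5, 58.4 and 49.7 CPM in HFD livers (log2 fold change 1.02 ± 0.13, adjusted p = 0.00806), and C6, a part of the complement pore, had 245, 229, 264 and 177 CPM in FEN-HFD livers, against 108, 98.1, 137 and 135 CPM in HFD livers (log2 fold change 0.94 ± 0.15, adjusted p = 0.0191). C8a, another part of the pore, had 1308, 899, 1108 and 1264 CPM in FEN-HFD livers, against 493, 464, 779 and 663 CPM in HFD livers (log2 fold change 0.93 ± 0.19, adjusted p = 0.0428). In F11 the FEN-HFD livers were nearly equal. Cfd, complement factor D or adipsin, made mostly by fat cells, had 77.8, 52.9, 53.3 and 139.8 CPM in FEN-HFD livers, against 7.498, 5.83, 23.4 and 8.92 CPM in HFD livers (log2 fold change 2.81 ± 0.52, adjusted p = 0.038), with mouse 29 highest and adjusted p = 0.0708 without it. These were the 4 of 40 complement and coagulation genes that rose, the median of the list was 0.41 on the log2 scale, and 0 fell by edgeR (2 with an unadjusted p under 0.05, 1 in DESeq2 and 1 in limma-voom), while the number that rose, 4 by edgeR, was 6 without mouse 29, 20 with an unadjusted p under 0.05, 14 in DESeq2 and 12 in limma-voom. Cfd was the 1 of 5 tested fat cell markers that rose, and Fabp4, another of them, named after its values were seen, had 13.1, 12.7, 11.3 and 21.8 CPM in FEN-HFD livers, against 16.8, 20.2, 9.51 and 22.5 CPM in HFD livers (adjusted p = 0.692). Fetub, a secreted protease inhibitor, rose (log2 fold change 0.75 ± 0.13, adjusted p = 0.027). Among 27 acute phase genes 0 rose by edgeR (11 with an unadjusted p under 0.05, 6 in DESeq2 and 2 in limma-voom) and 0 fell by edgeR (1 with an unadjusted p under 0.05, 0 in DESeq2 and 0 in limma-voom), with a median of 0.62 and of 0.23 without mouse 29.

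Several other genes had large changes. Adam11, a membrane protein of the ADAM family, had 22.1, 12.8, 13.6 and 29.7 CPM in FEN-HFD livers, against 1.49, 2.66, 2.55 and 1.17 CPM in HFD livers (log2 fold change 3.28 ± 0.36, adjusted p = 0.00586). Cd300e, a receptor of myeloid cells, had 2.99, 3.05, 3.97 and 4.73 CPM in FEN-HFD livers, against 0.801, 0.628, 0.913 and 0.701 CPM in HFD livers (log2 fold change 2.25 ± 0.24, adjusted p = 0.00464). BC021767 had 4.58, 5.53, 6.43 and 4.63 CPM in FEN-HFD livers, against 0.4004, 0.568, 0.756 and 1.68 CPM in HFD livers (log2 fold change 2.65 ± 0.38, adjusted p = 0.0124). Each of the 3 separated the groups, which was a condition for naming them, and was called without mouse 29. Sult2a7, Pcdh11x and Fam81a rose by 2.16, 2.23 and 1.96 on the log2 scale. On the other side Lrrc39 had 0.432, 0.678, 0.774 and 0.403 CPM in FEN-HFD livers, against 4.26, 6.52, 2.83 and 4.13 CPM in HFD livers (log2 fold change -2.91 ± 0.32, adjusted p = 0.00464) and Lrrc14b had 0.613, 0.565, 0.242 and 0.302 CPM in FEN-HFD livers, against 3.35, 5.23, 1.7003 and 4.21 CPM in HFD livers (log2 fold change -2.98 ± 0.42, adjusted p = 0.0111). Both encode leucine-rich repeat proteins and both overlap a neighbouring gene. H2-Q1, a class I molecule of the major histocompatibility complex, had 1.95, 2.899, 1.402 and 4.83 CPM in FEN-HFD livers, against 28.1, 48.4, 13.3 and 7.87 CPM in HFD livers (log2 fold change -3.23 ± 0.64, adjusted p = 0.0471), and its secreted relative H2-Q10 had 1571, 1759.9, 1756 and 1481 CPM in FEN-HFD livers, against 2502, 2888, 2553 and 2171 CPM in HFD livers (log2 fold change -0.62 ± 0.13, adjusted p = 0.043). Without mouse 29, H2-Q1 had adjusted p = 0.0807. Osbpl3, 2010003K11Rik, Defb1, Il22ra1, Scara3 and Aqp4 fell, with log2 fold changes between -2.52 (Defb1) and -1.71 (Aqp4), and of these Osbpl3 and 2010003K11Rik had adjusted p = 0.076 and 0.0893 without mouse 29.

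Of the abundant genes, those averaging 100 CPM or more, 43 of 1340 were called, 14 higher and 29 lower. Hsd17b2, which inactivates oestradiol and testosterone, had 170.03, 146, 149 and 129 CPM in FEN-HFD livers, against 71.3, 68.2, 96.5 and 91.4 CPM in HFD livers (log2 fold change 0.86 ± 0.14, adjusted p = 0.0177). Papss2, which makes the sulfate donor of sulfotransferases, and Gm14420 rose by 0.51 and 1.30 on the log2 scale. Creg1, a secreted glycoprotein, had 283, 289, 315 and 233 CPM in FEN-HFD livers, against 496, 505, 496 and 444 CPM in HFD livers (log2 fold change -0.79 ± 0.12, adjusted p = 0.0124). Of 45 tested ribosomal protein genes 2 rose, Rps16 (log2 fold change 0.44 ± 0.0782, adjusted p = 0.0254) and Rplp2 (log2 fold change 0.45 ± 0.0874, adjusted p = 0.0364), the median was 0.27, and 0 fell by edgeR (0 with an unadjusted p under 0.05, 0 in DESeq2 and 0 in limma-voom), while the number that rose, 2 by edgeR, was 2 without mouse 29, 32 with an unadjusted p under 0.05, 18 in DESeq2 and 7 in limma-voom. Mouse 29 was the highest FEN-HFD liver in 35 of them (77.8%), against 39.1% of all genes, and Rpsa, outside the list, rose by 0.54 on the log2 scale. Oxidative phosphorylation genes gave no call. Among 46 tested 0 rose by edgeR (1 without mouse 29, 0 with an unadjusted p under 0.05, 0 in DESeq2 and 0 in limma-voom) and 0 fell by edgeR (0 with an unadjusted p under 0.05, 0 in DESeq2 and 0 in limma-voom).

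The labelled tissue was checked against markers of liver cells. Hepatocyte genes were abundant in all 8 livers, with summed levels of the 10 markers between 61055 and 82041 CPM in FEN-HFD livers and between 82627 and 91392 CPM in HFD livers, and 0 of them rose or fell by edgeR (3 rose and 3 fell at an unadjusted p under 0.05, 3 and 3 by DESeq2 and 2 and 2 by limma-voom). Alb, serum albumin, had 29885, 34739.8, 27088 and 41951 CPM in FEN-HFD livers, against 51939, 47546, 52117 and 45216 CPM in HFD livers (adjusted p = 0.128, and 0.0325 without mouse 29). Of 11 pancreatic and gut markers 1 had enough counts to be tested.

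Markers of immune cells were high in mouse 29. All 9 tested class II genes of the major histocompatibility complex were highest in mouse 29 among FEN-HFD livers, and their summed level was 168, 137, 142 and 1118 CPM in FEN-HFD livers, against 182, 251, 187 and 161 CPM in HFD livers. Cd74, the invariant chain of that complex, had 69.9, 57.8, 56.2 and 396 CPM in FEN-HFD livers, against 64.2, 89.1, 66.8 and 55.9 CPM in HFD livers (adjusted p = 0.435). The other FEN-HFD livers were within or below the HFD range. The list's median log2 fold change was 0.95 with mouse 29 and -0.49 without it, when 1 gene, H2-Ab1, named for this after its values were seen, fell (adjusted p = 0.0327). B cell markers summed to 8.33, 4.14, 4.55 and 41.2 CPM in FEN-HFD livers, against 7.13, 6.25, 4.82 and 7.87 CPM in HFD livers, and T and natural killer cell markers to 6.02, 4.48, 7.25 and 20.6 CPM in FEN-HFD livers, against 3.57, 4.19, 5.67 and 6.35 CPM in HFD livers. In each of these 3 lists 0 genes rose and 0 fell by edgeR, and at an unadjusted p under 0.05 0 rose and 0 fell in the class II list, 0 rose and 0 fell in the B cell list and 2 rose and 0 fell in the T and natural killer cell list, with 0 and 0, 0 and 0 and 1 and 0 by DESeq2 and 0 and 0, 0 and 0 and 0 and 0 by limma-voom. Whether the ribosomal RNA, the depth or the immune cells of mouse 29 take part in its other differences was not tested.

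Macrophage markers were described in 2 lists. Marco, a scavenger receptor of Kupffer cells, had 30.7, 50.5, 40.4 and 112 CPM in FEN-HFD livers, against 9.46, 8.88, 14.8 and 15.3 CPM in HFD livers (log2 fold change 2.26 ± 0.41, adjusted p = 0.0357, adjusted p = 0.0178 without mouse 29). The lowest FEN-HFD liver was about 2 times the highest HFD liver. It was the 1 of 12 Kupffer cell markers that rose, and this count was 1 without mouse 29, 7 with an unadjusted p under 0.05, 2 in DESeq2 and 2 in limma-voom. The median log2 fold change of the list was 0.62, and 0.30 without mouse 29. Mouse 29 was the highest FEN-HFD liver in 11 of the 12 Kupffer cell markers (91.7%), against 39.1% of all genes tested. Clec4f, which defines these cells and was named after its values were seen, had 156, 130.3, 155 and 255 CPM in FEN-HFD livers, against 112, 99.8, 142 and 118 CPM in HFD livers (adjusted p = 0.184) and Timd4 had 7.604, 6.48, 6.53 and 13.3 CPM in FEN-HFD livers, against 4.77, 2.66, 5.54 and 4.32 CPM in HFD livers (adjusted p = 0.121). The markers of lipid-associated macrophages, which gather in fatty livers, gave no call. Among 12 tested 0 rose by edgeR (0 with an unadjusted p under 0.05, 0 in DESeq2 and 0 in limma-voom) and 0 fell by edgeR (1 with an unadjusted p under 0.05, 0 in DESeq2 and 0 in limma-voom). Trem2 had 0.577, 0.414, 0.484 and 2.11 CPM in FEN-HFD livers, against 2.51, 4.66, 0.724 and 1.29 CPM in HFD livers (adjusted p = 0.275) and Mmp12 had 0.793, 0.452, 0.242 and 5.34 CPM in FEN-HFD livers, against 8.33, 21.8, 2.39 and 1.56 CPM in HFD livers (adjusted p = 0.275). In both, HFD mice 25 and 28 and FEN-HFD mouse 29 were high. The median of this list was -0.38, and -0.84 without mouse 29.

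**Figure D5:**
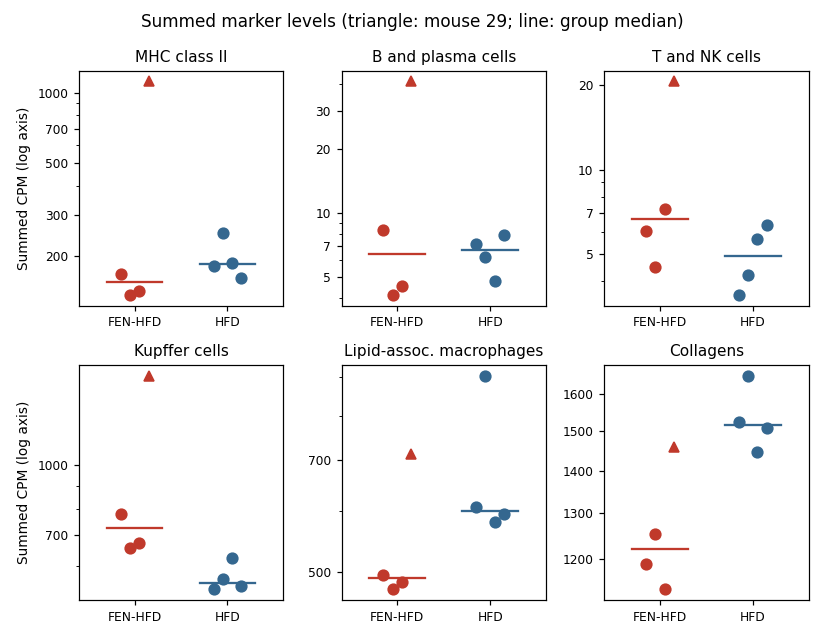
Summed CPM of the tested members of 6 lists in each liver on a log axis, FEN-HFD livers left and HFD livers right, with mouse 29 as a triangle and lines at the group medians. Mouse 29 is the highest of all 8 livers in MHC class II, B cell, T and natural killer cell, and Kupffer cell markers.

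Of 40 tested matrix genes 1 rose and 2 fell, and the falls numbered 6 without mouse 29, 11 with an unadjusted p under 0.05, 7 in DESeq2 and 11 in limma-voom. Lum, the proteoglycan lumican, had 5.37, 5.76, 5.56 and 8.86 CPM in FEN-HFD livers, against 14.2, 20.4, 11.5 and 19.5 CPM in HFD livers (log2 fold change -1.39 ± 0.22, adjusted p = 0.0179), and Smoc2, a matricellular protein, had 4.22, 5.31, 4.01 and 5.74 CPM in FEN-HFD livers, against 11.03, 15.4, 8.53 and 16.2 CPM in HFD livers (log2 fold change -1.42 ± 0.22, adjusted p = 0.0168). Col8a1 had 0.469, 0.602, 0.435 and 0.201 CPM in FEN-HFD livers, against 1.89, 2.24, 1.197 and 2.14 CPM in HFD livers (log2 fold change -2.03 ± 0.33, adjusted p = 0.0184) and Col15a1 had 4.58, 3.46, 2.76 and 3.93 CPM in FEN-HFD livers, against 6.48, 8.82, 5.699 and 9.89 CPM in HFD livers (log2 fold change -1.07 ± 0.22, adjusted p = 0.0421). All 4 separated the groups. The median log2 fold change of the 22 collagens was -0.55 (-0.75 without mouse 29), and 0 rose by edgeR (1 with an unadjusted p under 0.05, 0 in DESeq2 and 0 in limma-voom), while the number that fell, 2 by edgeR, was 5 without mouse 29, 10 with an unadjusted p under 0.05, 7 in DESeq2 and 11 in limma-voom. Col1a1, the main collagen of scars, had 3.21, 2.79, 4.21 and 16.4 CPM in FEN-HFD livers, against 17.4, 21.4, 8.16 and 16.4 CPM in HFD livers, with adjusted p = 0.264 and, without mouse 29, 0.0216. Mouse 29 alone lay within the HFD range. Mmp9, a gelatinase that neutrophils and macrophages also make, rose, with 2.85, 2.18, 1.93 and 6.04 CPM in FEN-HFD livers, against 0.473, 0.598, 0.819 and 0.896 CPM in HFD livers (log2 fold change 2.17 ± 0.40, adjusted p = 0.0293, and adjusted p = 0.013 without mouse 29). Among 12 stellate cell markers Lrat rose and Lum fell, and Pdgfrb, a growth factor receptor of these cells named after its values were seen, had 11.4, 9.902, 9.09 and 16.3 CPM in FEN-HFD livers, against 18.3, 19.5, 11.4 and 15.9 CPM in HFD livers (adjusted p = 0.249). Des, chosen after its values were seen, and Acta2, both of contractile cells, were high in HFD mouse 45 alone, at 51.2 and 24.9 CPM, against at most 4.57 and 5.83 CPM in the other HFD livers.

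Several lists gave no call. Among 21 clock genes 0 rose by edgeR (1 with an unadjusted p under 0.05, 1 in DESeq2 and 0 in limma-voom) and 0 fell by edgeR (2 with an unadjusted p under 0.05, 1 in DESeq2 and 0 in limma-voom), and Per2 had 32.4, 38.4, 38.01 and 40.1 CPM in FEN-HFD livers, against 26.1, 26.1, 32.3 and 30.2 CPM in HFD livers (adjusted p = 0.0935). Among 40 interferon-stimulated genes 0 rose by edgeR (2 with an unadjusted p under 0.05, 0 in DESeq2 and 0 in limma-voom) and 0 fell by edgeR (2 with an unadjusted p under 0.05, 1 in DESeq2 and 2 in limma-voom). Mouse 29 was the highest FEN-HFD liver in 36 of these 40 (90%), against 39.1% of all genes tested. Their summed level was 2213 CPM in mouse 29, up to 1257 CPM in the other FEN-HFD livers and up to 1218 CPM in HFD livers. The median was 0.05 on the log2 scale, and -0.22 without mouse 29. Among 23 sphingolipid genes 0 rose by edgeR (2 with an unadjusted p under 0.05, 2 in DESeq2 and 2 in limma-voom) and 0 fell by edgeR (4 with an unadjusted p under 0.05, 0 in DESeq2 and 3 in limma-voom), with a median of -0.04 on the log2 scale. In the list of 34 tested cell cycle genes 0 rose by edgeR (1 with an unadjusted p under 0.05, 0 in DESeq2 and 0 in limma-voom) and 0 fell by edgeR (6 with an unadjusted p under 0.05, 1 in DESeq2 and 1 in limma-voom), with a median of -0.35. Of the pericentral markers, which follow Wnt signals around the central vein, Lgr5 rose among 22, with 6.88, 6.59, 8.51 and 6.14 CPM in FEN-HFD livers, against 3.89, 2.54, 3.62 and 3.31 CPM in HFD livers (log2 fold change 1.08 ± 0.17, adjusted p = 0.0177), where the count was 2 without mouse 29, 5 with an unadjusted p under 0.05, 4 in DESeq2 and 4 in limma-voom. It encodes a receptor for R-spondins, and its lowest FEN-HFD liver lay well above the highest HFD liver.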

How the data were processed

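RNA was sequenced from the livers of 4 FEN-HFD and 4 HFD mice after ribosomal RNA removal. The authors deposited raw read counts per gene symbol. The submitters' processing notes name STAR 2.0, DESeq2 1.6 and mm10, and the counting program, annotation and strand setting are not given in the sources used here. The 8 libraries held 19218230 to 30810144 counts each, and the 8 other libraries of the series were not used here. Of 23420 symbols, 27 read like dates, as a spreadsheet would make them, and 2 occur more than once.

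Genes were filtered with filterByExpr, scaled by TMM and tested with edgeR 4.0.16 (glmQLFit with robust=TRUE, glmQLFTest) in R 4.3.3, with Benjamini-Hochberg adjustment over all 13010 genes and a threshold of 0.05. The SE is the log2 fold change divided by the square root of the F statistic. The script was tested on simulated data. Alternatives were DESeq2 1.42.0, limma-voom (limma 3.58.1) with sample quality weights, other scalings, filters and dispersion settings, a test against 1.5-fold, and each liver left out in turn.

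Named genes were up to 20 per direction with the largest fold change among called, non-overlapping genes averaging 2 CPM or more, up to 12 per direction with the smallest p among called genes averaging 100 CPM or more, the 4 genes of smallest p in each list, and genes taken from the paper. The 69 lists hold 1422 symbols, of which 1414 were found, 19 by a synonym, and 1250 were tested. The genes, lists and rule were chosen with earlier results of these data known. Promoters, symbols' positions and overlaps came from RefSeq, build GRCm38.p6. Some genes that met the rule are not reported here.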

Additional observations from a re-analysis of the deposited data

Results flagged for a closer look

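In a group of 4 livers a single liver was singled out where its gap to the nearest of the others exceeded Dixon's 95% limit, a set share of the whole range of the group, which chance alone passes in about 1 in 20 groups. Over the 126 genes named here this was tried on 252 groups and picked out 24, of which 13 were FEN-HFD mouse 29. Some of these genes were named after their values were seen. Rarg, Des, Cyp7a1 and H2-Ab1 are such genes, and mouse 29 was picked out in each. The counts therefore cannot be set against the rate of 1 in 20. Mouse 29 also stood apart in the share of counts taken by Rn45s, at 53.1% (the other FEN-HFD livers up to 1.46%), and by Lars2, at 4.36% (0.00685% to 0.0499%).

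FEN-HFD mouse 29 differed from the other FEN-HFD livers in Cd74 at 396 CPM (others 56.2 to 69.9), Col1a1 at 16.4 CPM (others 2.79 to 4.21), Cyp7a1 at 184 CPM (others 102 to 106), Des at 5.64 CPM (others 2.90 to 3.24), Fam81a at 8.05 CPM (others 3.48 to 4.07), H2-Ab1 at 197 CPM (others 21.6 to 25.3) and Lum at 8.86 CPM (others 5.37 to 5.76). It also did so in Mlxipl at 174 CPM (others 149 to 152), Mmp12 at 5.34 CPM (others 0.242 to 0.793), Mogat1 at 1.31 CPM (others 2.60 to 2.81), Rarg at 7.75 CPM (others 4.64 to 5.05), Timd4 at 13.3 CPM (others 6.48 to 7.60) and Trem2 at 2.11 CPM (others 0.414 to 0.577). FEN-HFD mouse 22 stood apart in Cyp39a1 at 5.76 CPM (others 3.02 to 3.46). FEN-HFD mouse 24 stood apart in Meg3 at 6.91 CPM (others 4.11 to 4.53) and Moxd1 at 16.2 CPM (others 1.11 to 1.995). HFD mouse 25 stood apart from the other HFD livers in Cyp26a1 at 4.84 CPM (others 3.68 to 3.82) and Elovl2 at 562 CPM (others 465 to 480.0). HFD mouse 28 stood apart from the other HFD livers in Fads1 at 529.7 CPM (others 411 to 424) and Raet1a at 0.598 CPM (others 0.0315 to 0.109). HFD mouse 45 stood apart from the other HFD livers in Acta2 at 24.9 CPM (others 3.49 to 5.83), Creg1 at 444 CPM (others 496 to 505), Des at 51.2 CPM (others 2.93 to 4.57) and Rian at 1.95 CPM (others 0.328 to 0.472). Of these genes Cd74, Col1a1, Cyp7a1, Des, H2-Ab1, Mmp12, Rarg, Timd4, Trem2 and Acta2 did not pass the test between the groups.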

How the results depend on the processing

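The number of genes that passed depended on the test and on the livers more than on the scaling. Against 100 genes higher and 142 lower, 413 and 580 passed in DESeq2, 484 and 644 in limma-voom, and 14 and 12 where edgeR tested for more than a 1.5-fold change. Other scalings, filters and dispersion settings gave between 87 and 125 higher and between 113 and 174 lower. With each liver left out in turn, between 16 and 203 genes were called higher and between 20 and 221 lower. The counts moved by over 1.5 times without FEN-HFD mouse 21 (16 and 20), mouse 22 (50 and 63), mouse 24 (45 and 44) and mouse 29 (203 and 221), and without HFD mouse 25 (23 and 33) and mouse 28 (59 and 79), and the cause was not tested. Of the 94 genes named here that passed, 22 passed in all 8 of these fits, namely Cyp26a1, Selenbp2, Mup9, Raet1d, Raet1e, Adam11, Cd300e, Hoxd4, F11, Cyp2c70, Crat, Vnn3, Elovl5, Fads1, Rdh16, Rdh9, Cyp39a1, Cyp46a1, Hamp2, Nnt, Lrrc39 and Lrrc14b. In 2114 of 2119 pairs of a named gene and an alternative the direction was kept. Most of these genes passed in the same livers, and many were named for that or for a small p. A kept direction is therefore little evidence for them. With each liver left out the log2 fold change of Cd74 lay between -0.17 and 1.33 and that of Cyp7a1 between -0.0092 and 0.68. The direction turned for Cd74 without mouse 29 (log2 fold change -0.17), for Cyp7a1 without FEN-HFD mouse 29 (-0.0056) and HFD mouse 25 (-0.0092), and for H2-Ab1 with limma-voom (-0.40) and without mouse 29 (-0.53). The median log2 fold change of 44 of 69 lists kept its sign under all 17 alternatives. It changed sign among others for MHC class II (-0.49 to 1.25), B cell markers (-0.18 to 1.30) and insulin signalling (-0.03 to 0.03). No paired analysis was possible because no mouse number is shared between the groups. The depth limits genes of few counts, most of all in mouse 29. Among those with a fold change above, Col8a1 and Lrrc14b each had 40 counts in all FEN-HFD livers together, Lrrc39 50 and Fgf21 51.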
